A study of Mus musculus with 6 samples.

Results

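Gamma-delta T cells carry an antigen receptor made of a gamma chain and a delta chain, each joined from variable, joining and constant gene segments. Transcripts of 7 such segment genes were looked for in RNA sequencing of mouse CD4-positive T cells. The genes were chosen by symbol, and 4 of the 7 had a row among the 13685 rows analysed: the gamma constant genes Tcrg-C1 and Tcrg-C2, the gamma variable gene Trgv2 and the delta variable gene Trdv4. The delta constant gene Trdc, the gamma constant gene Tcrg-C4 and the gamma variable gene Tcrg-V6 were not analysed here. The cells came from spleen and mesenteric lymph node of WT C57BL/6 mice, were isolated as CD4-positive cells, were depleted of regulatory T cells by CD25 and were cultured for 4 h. The tunicamycin group received 0.15 µg/mL tunicamycin, an inhibitor of N-linked glycosylation commonly used to provoke endoplasmic reticulum stress, and the vehicle group received vehicle alone. Each group had 3 libraries, called technical replicates in the labels, and p-values therefore measure the spread between libraries alone. The sources used here give neither the age nor the number of the mice.

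The gamma locus of the mouse holds several separate clusters, each with its own variable, joining and constant segments. Tcrg-C1 is joined to variable segments such as Tcrg-V4 and Tcrg-V6, Tcrg-C2 to Trgv2, and Tcrg-C4 to Tcrg-V1. The constant segment holds the part of the chain that anchors it in the membrane next to the CD3 proteins, and the variable segment holds much of the part that meets antigen. Gamma genes are also rearranged in thymocytes that go on to make an alpha-beta receptor, so a gamma transcript alone does not define a gamma-delta T cell. In bulk RNA, a change in the number of such cells and a change in their RNA cannot be told apart.

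Tcrg-C1 (ENSMUSG00000076749) lies at chr13:19214103-19217024 on the plus strand of build GRCm38, and Tcrg-C2 (ENSMUSG00000076752) at chr13:19304649-19307551 on the minus strand. Trgv2 (ENSMUSG00000076754) lies at chr13:19336573-19337167 on the minus strand, and Trdv4 (ENSMUSG00000076867) at chr14:54074905-54075515 on the plus strand. The annotation classes the first pair as constant and the second pair as variable receptor genes, and the positions were not converted to GRCm39, the build of the submitters' processing notes. The sequences of the constant genes are shown because both results on Tcrg-C2 depend on reads being told apart from those of Tcrg-C1. The first exons, of 330 bases each, differed at 9 bases, and bases 101 to 240 hold 6 of these, in capitals.
The Tcrg-C1 stretch lies at chr13:19214203-19214342 and the Tcrg-C2 stretch at chr13:19307312-19307451, each written on its own strand.
Tcrg-C1 exon 1: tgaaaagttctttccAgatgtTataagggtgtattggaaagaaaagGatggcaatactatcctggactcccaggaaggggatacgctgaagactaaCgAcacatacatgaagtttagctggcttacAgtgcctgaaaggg
Tcrg-C2 exon 1: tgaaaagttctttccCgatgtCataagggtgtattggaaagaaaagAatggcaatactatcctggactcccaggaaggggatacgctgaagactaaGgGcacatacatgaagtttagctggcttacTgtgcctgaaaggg
Exon 2 encodes part of the stretch that connects the chain to the membrane. It had 45 bases in Tcrg-C1 and 30 in Tcrg-C2, the exons lying at chr13:19215864-19215908 and chr13:19305769-19305798, and the capitals mark 1 placement of the 15 bases that Tcrg-C2 lacks.
Tcrg-C1 exon 2: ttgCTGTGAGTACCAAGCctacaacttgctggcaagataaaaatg
Tcrg-C2 exon 2: ttgctacaacttgctggcaagataaaaatg
Of the 31-base words of the annotated Tcrg-C1 transcript, 35.8% also occur in that of Tcrg-C2 and 29.5% in that of Tcrg-C3, another constant gene. Reads that fall wholly in such shared stretches cannot be assigned to 1 gene, so the levels of the gamma constant genes are uncertain. The submitters' processing notes name Salmon, a tool that gives estimated counts. The deposited counts of both genes were fractional in tunicamycin replicates 2 and 3 and vehicle replicate 3, so some reads were shared out in parts. The sources used here do not describe the settings for this, or say whether strand was used.

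The first 100 coding bases of the variable genes are shown because Trgv2 resembles Tcrg-V1, a variable gene described with it below. Tcrg-V1 lies at chr13:19339989-19340454 on the plus strand. The bases that differ between Trgv2 and Tcrg-V1, 3 in number, are in capitals.
Trgv2: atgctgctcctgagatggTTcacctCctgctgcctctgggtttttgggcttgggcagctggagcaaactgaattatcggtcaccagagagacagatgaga
Tcrg-V1: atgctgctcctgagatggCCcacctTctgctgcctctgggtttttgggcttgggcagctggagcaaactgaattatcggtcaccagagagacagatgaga
Trdv4: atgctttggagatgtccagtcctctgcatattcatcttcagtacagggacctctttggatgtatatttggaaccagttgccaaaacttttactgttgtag
Of the 31-base words of Trgv2, 19.5% also occur in Tcrg-V1, and 0% of those of Trdv4 occur in any of the gamma genes compared. Tcrg-V1 shares more: 26.2% of its words occur in Trgv2, 36.6% in Tcrg-V3 and 44.2% in any other gene compared. The levels of Trgv2 and Tcrg-V1 are therefore uncertain as well. The letters are those of the GENCODE M21 transcripts.

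Over all rows the rounded counts summed to between 10584240 and 11211225 in tunicamycin libraries and to between 7412116 and 9495674 in vehicle libraries, so these sums were smaller in vehicle. The rows are a part of the transcriptome, and their sums are not library depths. Nnt, a mitochondrial transhydrogenase gene that carries a deletion in the C57BL/6J substrain, had 143, 423 and 375 counts in tunicamycin replicates 1, 2 and 3, against 0 in each vehicle library. The labels name no substrain or donor for a library, so a difference in the animals and the treatment cannot be told apart in any result here. Alpha-beta T cell transcripts were abundant: Trbc2, a constant gene of the beta chain, averaged 1486 ± 80.1 TPM in tunicamycin and 1382 ± 50.4 TPM in vehicle (SD, n = 3 each). Cd3e and Cd3d, which encode subunits of the CD3 complex, averaged 569 and 241 TPM in tunicamycin, against 608 and 234 TPM in vehicle. Of 9 listed genes of the alpha-beta receptor and CD3, 4 had a row, 3 were tested and 0 passed, and Cd3e was at a log2 fold change of -0.13 (95% interval -0.25 to -0.01; edgeR adjusted p = 0.68). Cd4, Trac, Trbc1 and Cd3g were not analysed here. Over 3613 genes tested with edgeR's quasi-likelihood test, 3 passed an adjusted p of 0.05, which is 0.083%, and 6.42% had an unadjusted p under 0.05.

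The gamma constant genes were weakly expressed in all 6 libraries, and for neither did the difference between tunicamycin and vehicle pass the test. Tcrg-C1 was at 1.24, 3.25 and 3.02 TPM in tunicamycin replicates 1, 2 and 3, against 1.50, 4.55 and 2.03 TPM in vehicle replicates 1, 2 and 3. These TPM values came from 27, 73.4 and 67.9 estimated counts in tunicamycin, against 22, 68 and 38.2 in vehicle. The groups overlapped, and the highest library, vehicle replicate 2, held over 3 times the level of the lowest of its own group. The log2 fold change of Tcrg-C1 was -0.10 (SE 0.54, 95% interval -1.27 to 1.07; edgeR adjusted p = 0.99).

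Tcrg-C2 was at 1.27, 3.76 and 3.26 TPM in tunicamycin replicates 1, 2 and 3, against 0.868, 2.61 and 1.24 TPM in vehicle replicates 1, 2 and 3. It had 28, 85.6 and 74.1 estimated counts in tunicamycin, against 13, 40 and 23.8 in vehicle. The groups again overlapped, since tunicamycin replicate 1 lay below vehicle replicate 2. The log2 fold change of Tcrg-C2 was 0.80 (SE 0.57, 95% interval -0.44 to 2.03; edgeR adjusted p = 0.89). The interval of Tcrg-C1 includes a 2-fold change in either direction, and that of Tcrg-C2 a 2-fold rise. Changes of that size were therefore not excluded at this depth and spread. Of the members, 2 passed the filter on low counts, 0 of these were called by edgeR, 0 had an unadjusted p under 0.05, and 0 were called by limma on log2(TPM + 1), which called 0.0277% of genes. DESeq2 gave no adjusted p for either, and called 3.83% of the 600 genes for which it gave one. Neither constant gene was without overlap between the groups, where 6.62% of the genes tested were higher without overlap. The plot of levels by library shows all 4 genes.

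**Figure D1:**
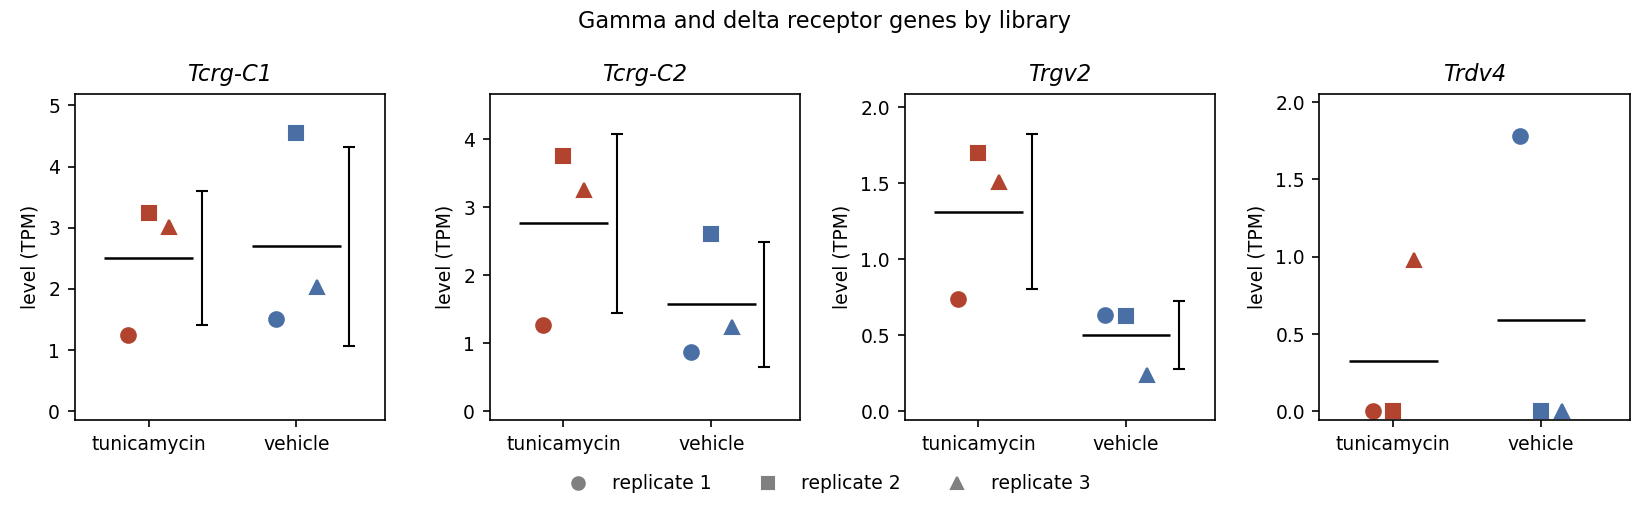
Levels of Tcrg-C1, Tcrg-C2, Trgv2 and Trdv4 in TPM, in tunicamycin (red) and vehicle (blue); symbols are replicates, lines are group means and bars are SD (n = 3), left out for Trdv4, which was at 0 in 4 libraries. The groups overlap for Tcrg-C1, Tcrg-C2 and Trdv4, and the Trgv2 values of 0.736 to 1.70 TPM in tunicamycin lie above those of 0.241 to 0.636 TPM in vehicle.

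Both constant genes followed the same order of libraries within a group. In tunicamycin, replicate 2 was highest and replicate 1 lowest for Tcrg-C1 and for Tcrg-C2. In vehicle, replicate 2 was also highest and replicate 1 lowest for both. Summed, the 2 genes came to 0.309%, 0.847% and 0.794% of the summed TPM of Cd3d and Cd3e in tunicamycin replicates 1, 2 and 3, against 0.275%, 0.836% and 0.406% in vehicle replicates 1, 2 and 3. Set beside Trbc2, the summed level was 0.159% to 0.482% in tunicamycin and 0.165% to 0.522% in vehicle, which overlap. The summed level of all 4 members averaged 6.90 ± 3.17 TPM in tunicamycin and 5.36 ± 2.19 TPM in vehicle (SD, n = 3 each), with overlapping groups.

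The relative use of the 2 constant genes was steadier than their levels. Tcrg-C2 made up 50.9%, 54.1% and 52.1% of the summed counts of Tcrg-C1 and Tcrg-C2 in tunicamycin replicates 1, 2 and 3, against 37.1%, 37.0% and 38.7% in vehicle replicates 1, 2 and 3. The groups did not overlap. The mean share was 52.4% ± 1.61 in tunicamycin and 37.6% ± 0.937 in vehicle (SD, n = 3 each), a difference of 14.7 percentage points. A 2-sided exact permutation test gave p = 0.1, the smallest that 3 against 3 libraries allow, so the design cannot reach 0.05. On deposited TPM the difference was 15.1 percentage points. This ratio was examined after the levels had been seen.

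Single libraries fix the share only loosely. Tunicamycin replicate 1, with 55 counts over both genes, had an exact Clopper-Pearson 95% interval of 37.1% to 64.6%, and vehicle replicate 1, with 35 counts, one of 21.5% to 55.1%. The library of each group with the most counts over both genes, replicate 2, had intervals of 46.0% to 62.0% in tunicamycin, from 159 counts, and 27.9% to 46.9% in vehicle, from 108 counts. The intervals of replicate 2 overlap narrowly. Those of replicate 3, 43.6% to 60.6% in tunicamycin and 26.6% to 51.9% in vehicle, overlap more, as do those of replicate 1. All these intervals cover counting error only. The spread of the share between libraries of a group was smaller than these intervals. The part that reads shared between the 2 genes have in the share was not tested.

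**Figure D2:**
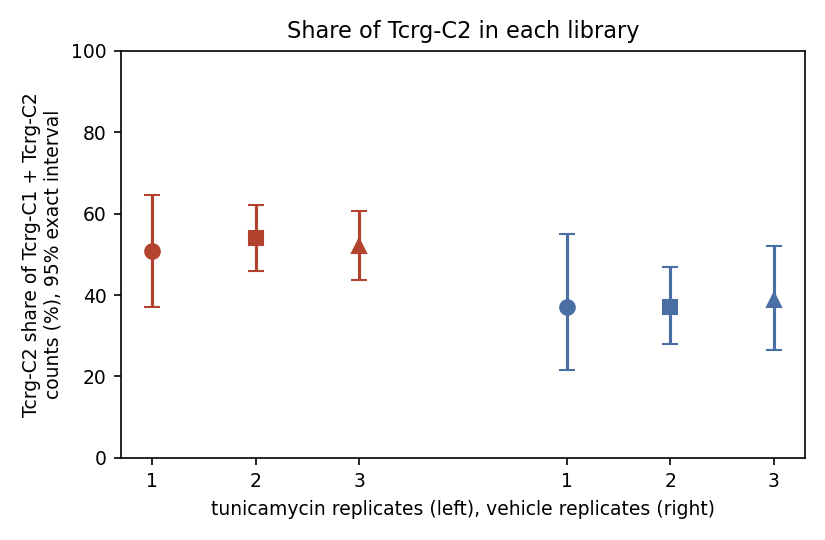
Share of Tcrg-C2 in the summed counts of Tcrg-C1 and Tcrg-C2, in percent, for tunicamycin replicates (left, red) and vehicle replicates (right, blue); bars are exact 95% binomial intervals. The 3 tunicamycin shares lie between 50.9% and 54.1% and the 3 vehicle shares between 37.0% and 38.7%.

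Trgv2, the variable segment upstream of Tcrg-C2, had few counts. It had 7, 17 and 15 counts in tunicamycin replicates 1, 2 and 3, against 4, 4 and 2 in vehicle replicates 1, 2 and 3. Per length this was 0.736, 1.70 and 1.51 TPM in tunicamycin, against 0.636, 0.624 and 0.241 TPM in vehicle. All 3 tunicamycin libraries were above all 3 vehicle libraries, although tunicamycin replicate 1 exceeded vehicle replicate 1 only slightly. Of the 4 members, 1 was higher without overlap in CPM, which here divides counts by the TMM-scaled sum over the rows, against 5.46% of the 6753 rows with counts. None was lower without overlap (0 of 4), against 3.92% of those rows. Trgv2 did not pass the filter on low counts. In edgeR without that filter its log2 fold change was 1.43 (SE 1.28, 95% interval -1.13 to 3.99; edgeR adjusted p = 0.79), where 0.237% of rows were called.

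Trdv4, a delta variable segment known in the mouse for pairing with Tcrg-V6 in interleukin 17-producing gamma-delta T cells, was seen in only 2 libraries. It had 8 counts, or 0.978 TPM, in tunicamycin replicate 3, and 9 counts, or 1.78 TPM, in vehicle replicate 1. The other 4 libraries were at 0 counts, which allows up to 3 counts, or 0.263 to 0.282 CPM in tunicamycin replicates 1 and 2 and 0.327 to 0.400 CPM in vehicle replicates 2 and 3. No direction can be read from these values. In edgeR without the filter its adjusted p was 0.96.

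Ordered by mean level over the 6 libraries, Tcrg-C1 came first at 2.60 TPM, then Tcrg-C2 at 2.17 TPM, Trgv2 at 0.906 TPM and Trdv4 at 0.460 TPM. The difference between the means of Tcrg-C1 and Tcrg-C2 was not tested. In tunicamycin Tcrg-C2 was the higher of the 2 in each library, while in vehicle Tcrg-C1 was. Of the rows with counts, 35.0% had a higher mean TPM than Tcrg-C1 and 48.9% a higher one than Trdv4.

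Beyond the members, other segments of the gamma and delta loci were then taken by symbol, a choice made after their values were seen. Of 18 such rows, 13 were at 0 in every library, among them Tcrg-C3, Tcrg-V3, Tcrg-V5 and Tcrg-V7 and all joining and diversity segments with a row. Joining and diversity segments are short, and whether reads could be assigned to them was not tested, so their 0 does not show absence. Tcrg-V1 and Tcrg-V4 belong to the gamma variable genes that gamma-delta T cells of mouse spleen and lymph node are known to use most. Tcrg-V1 had 7, 5 and 13 counts in tunicamycin replicates 1, 2 and 3, against 0 in each vehicle library. At its tunicamycin level, a vehicle library would hold 5.62 to 6.93 counts. Its tunicamycin mean of 0.757 CPM was 2.01 times 0.377 CPM, the mean vehicle level of a floor of 3 counts. That ratio leaves out the counting error of the tunicamycin libraries, of which replicate 2 was lowest at 0.438 CPM. The edgeR adjusted p of Tcrg-V1 without the filter was 0.69.

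Tcrg-V4, at chr13:19184974-19185506 on the plus strand, had 16, 5 and 15 counts in tunicamycin replicates 1, 2 and 3, against 3, 0 and 0 in vehicle replicates 1, 2 and 3. In CPM the lowest tunicamycin value, 0.438, lay just above the highest vehicle value, 0.403. Its edgeR adjusted p without the filter was 0.76. Of Trgv2, Tcrg-V1 and Tcrg-V4, 0 passed the test over all rows. Tcrg-V1 had counts in tunicamycin alone, and the rows were put together after their values were seen, so their sum is a description. Summed, they had 30, 27 and 43 counts in tunicamycin replicates 1, 2 and 3, against 7, 4 and 2 in vehicle replicates 1, 2 and 3. In CPM the sums were 2.82, 2.36 and 3.89 in tunicamycin and 0.941, 0.533 and 0.218 in vehicle. The 3 rows share a locus and, for Trgv2 and Tcrg-V1, some sequence, so they are not independent.

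**Figure D3:**
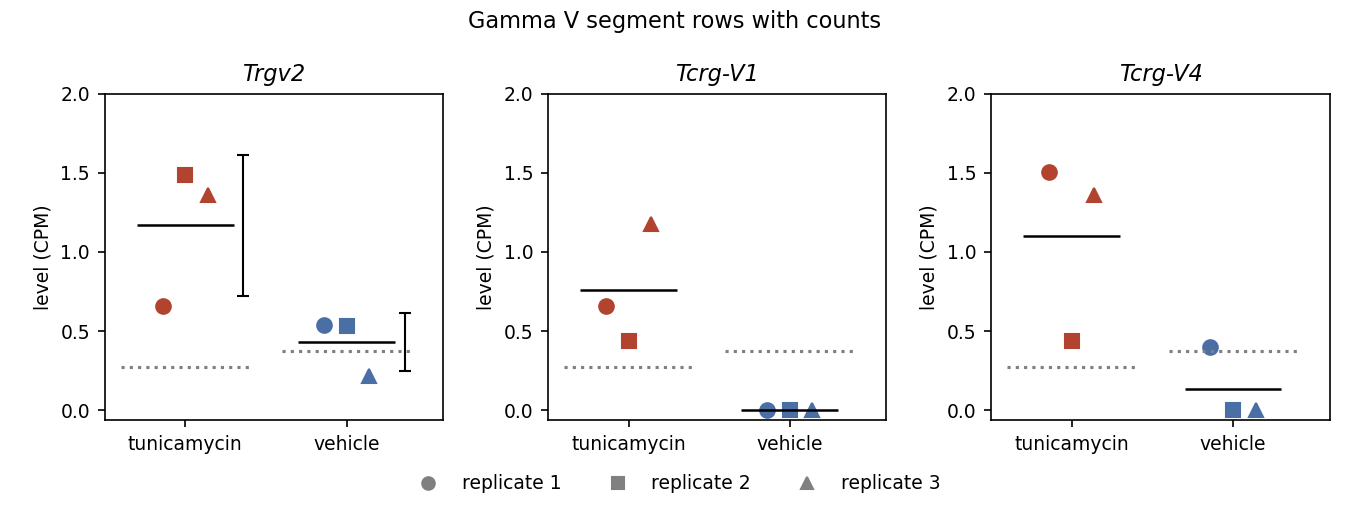
Levels in CPM of the gamma variable genes Trgv2, Tcrg-V1 and Tcrg-V4 in tunicamycin (red) and vehicle (blue); symbols are replicates, solid lines are group means, bars are SD (n = 3) for Trgv2 alone, and dotted lines mark the mean level of 3 counts in each group. Tcrg-V1 is at 0 in all 3 vehicle libraries, and the Tcrg-V4 values of 0.438 to 1.50 CPM in tunicamycin begin just above the highest vehicle value of 0.403 CPM.

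Trdv2-2 had 57, 18 and 33.4 estimated counts in tunicamycin replicates 1, 2 and 3, against 20, 53 and 29.0 in vehicle replicates 1, 2 and 3. The libraries that were high for Trdv2-2, tunicamycin replicate 1 and vehicle replicate 2, differed in the gamma constant genes, where tunicamycin replicate 1 was the lowest of its group. The log2 fold change of Trdv2-2 was -0.38 (95% interval -1.68 to 0.92; edgeR adjusted p = 0.97). Trdv5 had 3, 6 and 6 counts in tunicamycin replicates 1, 2 and 3, against 8, 0 and 0 in vehicle replicates 1, 2 and 3, and Trdv2-1, which is close in sequence to Trdv2-2, had 12.6 in tunicamycin replicate 3 and 0 in the others. Reads of these near copies may be split between them, so both values are uncertain.

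A further 10 variable segments, named for both alpha and delta chains, can be joined to either. Their summed level was 104 to 107 TPM in tunicamycin and 109 to 144 TPM in vehicle, many times that of the delta segments above. The TPM sums did not overlap, but in CPM they did, at 89.3 to 95.9 in tunicamycin and 93.2 to 123 in vehicle. All 10 were tested, 0 were called by edgeR or limma, and 0 had an unadjusted p under 0.05 in edgeR. The median log2 fold change was -0.20, against 0.00 over all genes tested. The most abundant, Trav4-4-dv10 and Trav6-7-dv9, were at -0.19 (95% interval -0.60 to 0.21) and -0.25 (95% interval -0.66 to 0.15). In cells selected as CD4-positive, transcripts of these segments cannot be divided between the 2 chains here.

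Genes known to mark types of gamma-delta T cells and other lymphocytes were compared in the same fit. Of 24 listed genes of the interleukin 17-producing type, 8 had a row, 5 were tested and 0 passed, with 2 higher at an unadjusted p under 0.05, against 3.24% of all genes tested, and a median of 0.09. Their summed level was 33.6 to 51.2 TPM in tunicamycin and 36.3 to 41.4 TPM in vehicle. Il17a, which encodes interleukin 17A, and Blk, a kinase of these cells, reached at most 0.102 and 0.159 TPM in any library. Cxcr6, a chemokine receptor of tissue-homing and innate-like T cells, was at 8.81, 15.0 and 19.9 TPM in tunicamycin replicates 1, 2 and 3, against 6.63, 7.53 and 8.32 TPM in vehicle replicates 1, 2 and 3. The groups did not overlap. Cxcr6 differed by 0.99 on the log2 scale (95% interval 0.36 to 1.61; edgeR adjusted p = 0.44), and it passed without tunicamycin replicate 1 (edgeR adjusted p = 0.044; range over all alternatives 0.010 to 1.00). The tunicamycin libraries with the higher Cxcr6, replicates 2 and 3, also had the higher gamma constant levels of their group, while vehicle replicate 2, with the highest gamma constant level of its group, was in the middle of its group for Cxcr6. S100a4, which encodes a calcium-binding protein of activated and memory cells, was at a log2 fold change of -0.42 (95% interval -0.86 to 0.02).

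Of 15 listed genes of the interferon-gamma-producing type, 7 had a row, 6 were tested and 0 passed, with 2 higher at an unadjusted p under 0.05, against 3.24% of all genes tested, and a median of 0.05. Their summed level was 70.2 to 92.9 TPM in tunicamycin and 48.7 to 77.5 TPM in vehicle. Most of it was Ccl5, a chemokine of cytotoxic and memory lymphocytes, at a log2 fold change of 0.40 (95% interval 0.08 to 0.72; edgeR adjusted p = 0.61). Id3, a transcriptional regulator, was at 0.32 (95% interval -0.11 to 0.75).

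Of 22 listed NK cell genes, 12 had a row, 8 were tested and 0 passed, with 2 higher at an unadjusted p under 0.05, against 3.24% of all genes tested, and a median of 1.13. Their summed level was 15.1 to 21.3 TPM in tunicamycin and 10.4 to 15.6 TPM in vehicle, which overlap. The largest part of this sum was Prf1, the pore-forming perforin, at a log2 fold change of 0.02 (95% interval -0.23 to 0.27). Gzma, which encodes a granzyme, differed by 1.15 on the log2 scale (95% interval 0.17 to 2.13; edgeR adjusted p = 0.65). Ncr1, a receptor of NK cells that does not mark them alone, had 24, 25 and 4 counts in tunicamycin replicates 1, 2 and 3, against 5, 0 and 2 in vehicle replicates 1, 2 and 3. Mean CPM was lower in tunicamycin for Ccl3, Ccl4 and Cma1, at 0.359, 0.614 and 0.313 against 0.886, 0.626 and 0.333 in vehicle. It was higher for the other NK rows, though little for Prf1 and Klra1. In CPM, 3 of the 12 NK rows, Klre1, Klra4 and Klri2, which encode receptors of the killer cell lectin-like families, were higher in tunicamycin without overlap, against 5.46% of rows with counts. Klri2 was at 3.19, 4.03 and 5.43 CPM in tunicamycin replicates 1, 2 and 3, against 1.61, 0.400 and 0.545 CPM in vehicle replicates 1, 2 and 3 (log2 fold change 2.30, 95% interval 0.79 to 3.81; edgeR adjusted p = 0.44). Tunicamycin replicate 3 was the highest of its group in CPM for Klri2, Klra1, Ccl3 and the summed gamma variable rows, and the lowest alone for Ncr1, Klra4, Klra8, Gzma, Gzmb, Prf1 and Ccl4. These ranks describe 1 library, and some differences were small. Klra8 was at 1.18 CPM in tunicamycin replicate 3 against 1.23 in replicate 2, and Prf1 at 66.4 CPM against 67.5 in replicate 1. Ncr1 and these further NK genes were picked with their values in view. Of 12 listed genes of innate lymphoid cells, 5 had a row, 2 were tested and 0 passed, and their summed level was 2.39 to 3.50 TPM in tunicamycin and 1.50 to 2.75 TPM in vehicle, with Il22 at 0 in every library. The most abundant of these, Klrg1 and Areg, were at log2 fold changes of 0.49 (95% interval -0.33 to 1.32) and 1.19 (95% interval -0.95 to 3.32). Klrg1 was the only innate lymphoid row higher in tunicamycin without overlap in CPM, against 5.46% of rows with counts, and its lowest tunicamycin value, 5.97, lay just above the highest vehicle value, 5.78. The part of these cell types in the gamma transcripts was not tested.

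Cd8b1, of CD8 T cells, was at 10.5 to 11.9 TPM in tunicamycin and 9.47 to 10.8 TPM in vehicle. Summed levels of the regulatory T cell genes with a row were 82.9 to 95.2 TPM in tunicamycin and 72.2 to 94.6 TPM in vehicle. Those of the B cell genes were 1.44 to 1.75 TPM in tunicamycin and 1.67 to 2.33 TPM in vehicle, and those of the macrophage genes 6.38 to 12.2 TPM in tunicamycin and 4.01 to 12.6 TPM in vehicle. In these 4 lists 1, 2, 2 and 5 genes were tested, and 0 were called by edgeR or limma or had an unadjusted p under 0.05 in edgeR. The most abundant were Tnfrsf4 and Il2ra for regulatory T cells, Cd79a and Ighd for B cells, and Lyz2 and C1qa for macrophages, with log2 fold changes between -0.40 and 0.30.

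The direction for Tcrg-C1 depended on single libraries, and that for Tcrg-C2 did not. Without vehicle replicate 2 the log2 fold change of Tcrg-C1 was 0.50 and that of Tcrg-C2 1.36. Without tunicamycin replicate 1 they were 0.22 and 1.14. Neither gene was called in any of the fits that gave an adjusted p, which ran from 0.86 to 1.00 for Tcrg-C1 and from 0.56 to 1.00 for Tcrg-C2.

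**Figure D4:**
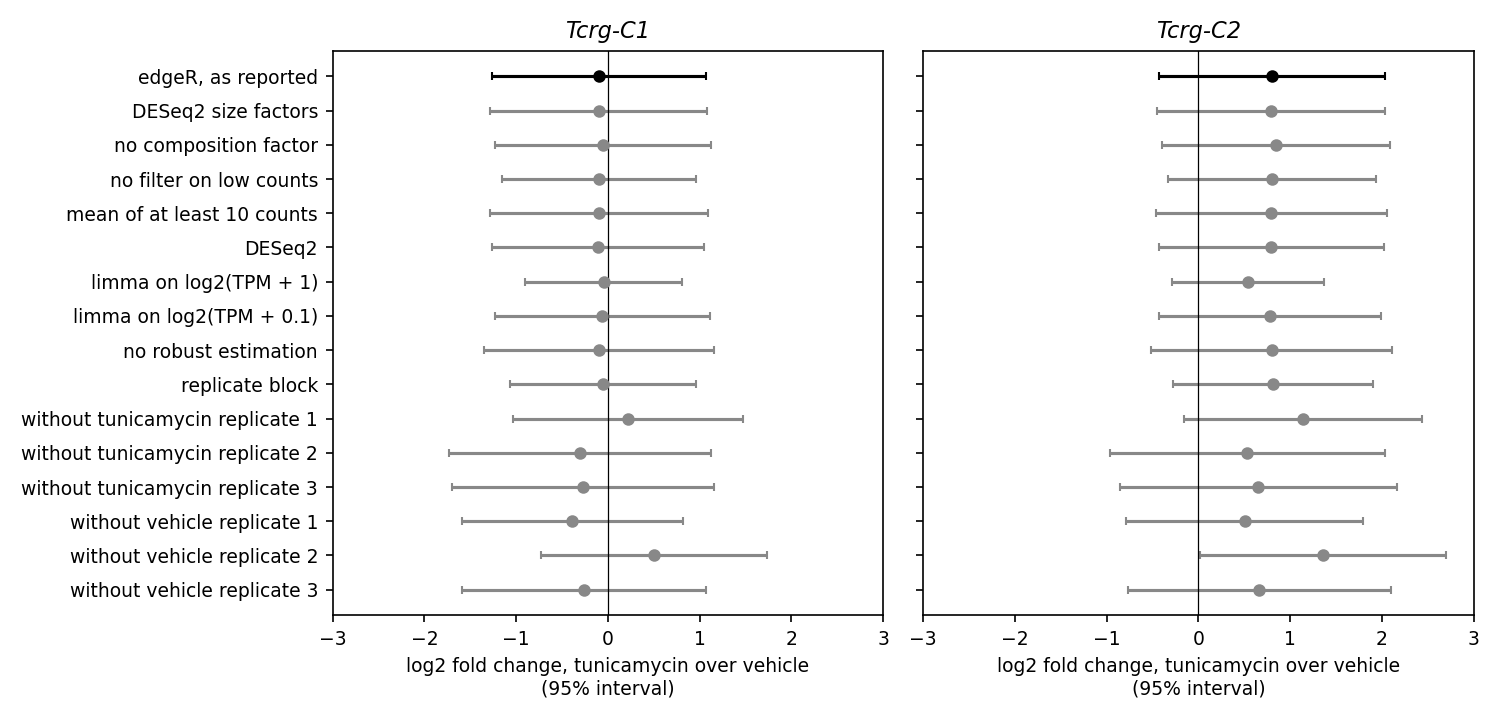
Log2 fold changes of Tcrg-C1 (left) and Tcrg-C2 (right), tunicamycin over vehicle, with 95% intervals, in the reported edgeR fit (black) and 15 alternatives (grey). The points for Tcrg-C2 run from 0.50 to 1.36 and those for Tcrg-C1 from -0.39 to 0.50, and the interval excludes 0 only for Tcrg-C2 without vehicle replicate 2, before adjustment over genes.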

How the data were processed

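Per the labels, RNA of 6 libraries was sequenced as paired reads. The authors deposited estimated counts per gene, partly fractional and not scaled to depth, and TPM for the same rows. The tools in the submitters' processing notes are Salmon, bcl2fastq and DESeq2, with build GRCm39. The sources used here do not state the transcript annotation or how transcripts were summed to genes. Symbols were matched by Ensembl identifier.

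Deposited counts were rounded, and R 4.3.3 with edgeR 4.0.16 was used: filterByExpr, TMM scaling, robust 2-sided quasi-likelihood F test, Benjamini-Hochberg adjustment over 3613 genes and a threshold of 0.05. Alternatives used DESeq2 1.42.0, limma 3.58.1 on log2(TPM + 1) and log2(TPM + 0.1), other scalings and filters, a replicate block and leaving out each library. The fit was tested on simulated counts. The exact permutation test used SciPy 1.17.1. Intervals of shares and floors of 3 counts cover counting error only, since no molecular identifiers are named. The rows are a part of each library, so their totals are not library depths. Positions and sequences come from GENCODE M21 on GRCm38.

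The members and lists were chosen with earlier results of these data known. All members with a row are named. From each other list, genes past the threshold are named, or otherwise the 2 with the highest mean TPM, and further genes are named as examples at low levels, chosen after their values were seen.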

Additional observations from a re-analysis of the deposited data

How the results depend on the processing

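Without a filter on low counts edgeR called 10 genes higher and 6 lower, DESeq2 5 and 18, limma on log2(TPM + 1) 1 and 0, and edgeR with the replicate block 14 and 22, against 2 and 1 as reported. Lower calls alone also moved to 2 with DESeq2 size factors and to 0 with no composition factor, with limma on log2(TPM + 0.1) and without robust estimation. Leaving out each library gave 1 to 4 higher and 0 to 1 lower. The causes were not tested. The log2 fold change of Tcrg-C1 ran from -0.39 to 0.50 when each library was left out, with the sign turned without tunicamycin replicate 1 and without vehicle replicate 2, and from -0.10 to -0.05 in the other alternatives. That of Tcrg-C2 kept its direction in 15 of 15. With the replicate block the 2 genes were at -0.05 and 0.81 (edgeR adjusted p = 0.98 and 0.64).

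The replicate numbers were not taken as pairs, since the labels do not state pairing. The library names do hint at it, as each tunicamycin library has the name of a vehicle library with plusTun added. Deviations from the group means of same-numbered libraries correlated at 0.04, 0.19 and 0.11 over 3613 genes. Each of the 6 had its highest correlation with its own number, which is a further hint. Neither hint establishes that the libraries were paired. The difference in the share of Tcrg-C2, an alternative chosen after seeing the data, ran from 13.9 to 15.5 percentage points when each library was left out. The difference in the summed CPM of the gamma variable rows ran from 2.03 to 2.79. Depth limits Trgv2, Trdv4, Tcrg-V1 and Tcrg-V4, which had at most 17 counts in any library.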

Other observations

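Zbtb16, which encodes the transcription factor PLZF of innate-like T cells, including some gamma-delta T cells, was at 0.711, 1.91 and 1.94 TPM in tunicamycin replicates 1, 2 and 3, against 0.513, 0.664 and 0.472 TPM in vehicle replicates 1, 2 and 3. In TPM all tunicamycin libraries were above all vehicle libraries, but in CPM the groups overlapped. Zbtb16 differed by 1.37 on the log2 scale (95% interval 0.56 to 2.17; edgeR adjusted p = 0.40; 0.022 to 1.00 over the alternatives). Like Cxcr6, it was called in edgeR with the replicate block (edgeR adjusted p = 0.022 for Zbtb16 and 0.010 for Cxcr6, with 0.996% of genes called), while Tcrg-C1 and Tcrg-C2 were not. Zbtb16 was chosen after its values were seen.

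Among 3612 other genes tested, the 5 whose log2 CPM over the 6 libraries was most like that of Tcrg-C1, the member with the highest mean count, were Cyp2d22, Tmtc2, Gm10310, Zfp458 and Dnajc3, with Pearson's r of 0.98, 0.98, 0.97, 0.97 and 0.96. Tcrg-C2 came in place 85, with r of 0.83. These values describe 6 libraries that share their depth and preparation, and the highest of 3612 correlations over 6 points are high by selection.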
